A study of Mus musculus with 48 samples.

Results

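The RNA of 8 thalamic libraries is described here, 4 from 5xFAD mice fed PLX5622 (5xFAD + PLX5622) and 4 from 5xFAD mice fed vehicle chow (5xFAD). They belong to a series of 48 libraries that also covers cortex, hippocampus and wild-type mice. Levels are in RPKM, a read count scaled to gene length and library depth, and genes with at least 0.2 RPKM in at least 4 libraries were tested, 15975 of 16014. All mice were C57BL/6, with 4 mice per group, and took the inhibitor at 1200 ppm in chow, or vehicle, from 1.5 months of age until 7 months. The 5xFAD line carries human transgenes with familial Alzheimer mutations, APP among them, driven by the neuronal Thy1 promoter. Wild-type thalamus with and without PLX5622 and the treated and untreated 5xFAD cortex and hippocampus, 4 libraries each, serve as comparisons. The label of the tissue is thalamus, and the design text describes thalamus dissected together with striatum. The labels give neither the sex of a mouse nor whether regions came from the same animals.

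Microglia are the resident macrophages of the brain. They need signalling through the receptor tyrosine kinase CSF1R, which binds CSF1 and IL-34, in order to survive, and PLX5622 blocks that kinase. Near amyloid plaques microglia lower their homeostatic genes and raise a set known as disease-associated microglia (DAM) genes. The full change, though not all of its parts, needs the receptor TREM2 and its adaptor TYROBP.

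The 8 libraries held 8.86 M to 15.49 M reads, recovered from the steps of the RPKM values. Markers of thalamic neurons were present in all 8. Tcf7l2, a transcription factor of thalamic neurons, read 13.6 to 54.46 RPKM and Slc17a6, the vesicular glutamate transporter of subcortical neurons, 26.01 to 53.24 RPKM. The dissections were not uniform. Drd1, the D1 dopamine receptor of striatal projection neurons, ranged from 7.343 to 26.68 RPKM in treated and from 2.324 to 32.14 RPKM in untreated libraries. The mean log2 level of 4 cortical neuron genes, Tbr1, Neurod6 and Emx1 among them, was -0.29 to 1.67 in treated and 1.82 to 3.53 in untreated libraries, with no overlap. Xist was above 10 RPKM in treated replicate 1 and untreated replicate 3 only. The tests use a spread within groups that is pooled over all libraries of the series, other regions included. Regions may come from the same mice, which the main fit does not take into account. No batch is given in the labels. The paper states that libraries were sequenced in pools, and the labels do not assign a library to a pool.

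PLX5622 lowered 386 genes in 5xFAD thalamus (2.42% of the genes tested) and raised 55 (0.344%), by limma at an adjusted p below 0.05 on log2(RPKM + 0.1). The falls were large and the rises small. The median log2 fold change was -1.56 over the lower genes, of which 140 fell at least 4-fold, and 0.44 over the higher genes, of which 2 rose at least 2-fold. The median over all genes tested was 0.02. Among the lower genes 93 had a mean under 1 RPKM in untreated 5xFAD thalamus. The lower genes were mostly insensitive to single libraries, with 258 called without any of the 8, whereas only 3 of the higher genes, Acsl6, Vegfa and Ednrb, were.

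Csf1r, the target of the inhibitor (chr18:61105572-61131139 on mm10), read 0.221, 0.4005, 0.8688 and 0.2392 RPKM in the 4 treated libraries and 27.11, 31.43, 32.87 and 30.16 RPKM in the untreated ones. All treated libraries lay far below all untreated ones, and treated replicate 3 was the highest of its group. The log2 fold change was -5.99 (SE 0.56, limma adjusted p = 8.64e-10), and 1.42 ± 0.993% of the untreated level was left (mean ± SD, n = 4; exact two-sided permutation p = 0.0286, the smallest that 4 against 4 allows). Without treated replicate 3 it was 0.944%. In tissue RNA, fewer microglia and less RNA per microglia cannot be told apart. The ligand genes were not called: Il34 read 9.436 to 12.17 RPKM in treated and 10.76 to 12.67 RPKM in untreated libraries (log2 fold change -0.17, limma adjusted p = 0.6), and the value for Csf1 was 0.17 (limma adjusted p = 0.736). Flt3 and Kit, the kinases most similar to CSF1R, had log2 fold changes of 0.29 and -0.37 (limma adjusted p = 0.444 and 0.608).

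Of 34 homeostatic microglial genes tested, 33 fell and 0 rose, with a median log2 fold change of -4.74 against 0.02 over all genes. Their summed level was 65.3 to 92.0 RPKM in treated and 512 to 719 RPKM in untreated libraries. Siglech, a sialic acid-binding lectin of microglia (chr7:55768154-55779448), read 0, 0, 0.1277 and 0.02578 RPKM with treatment against 4.688, 4.466, 6.336 and 5.232 RPKM without it. This amounted to 4 reads over the treated and 568 reads over the untreated libraries (log2 fold change -5.33, SE 0.331, limma adjusted p = 5.74e-14). The purinergic receptor gene P2ry13 was at 0 in treated replicates 2 and 4 and at 0.03763 and 0.1211 RPKM in replicates 1 and 3, against 4.054 to 5.811 RPKM in untreated mice (-5.18, limma adjusted p = 1.54e-12).

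The fractalkine receptor gene Cx3cr1, which reads a neuronal chemokine, was at 0.1786, 0.2081, 0.5472 and 0.1988 RPKM in treated and at 15.01, 17.76, 16.57 and 17.6 RPKM in untreated libraries (-5.55, limma adjusted p = 1.17e-10). Treated replicate 3 again stood above the other 3. That library had the highest treated value for 21 of the 34 homeostatic genes. The microglial receptor genes Gpr34 and P2ry12 and the membrane protein gene Tmem119 fell by 5.18, 4.88 and 4.13 on the log2 scale (limma adjusted p of 2.29e-09 or less). The Fc receptor-like gene Fcrls fell by 4.93 (limma adjusted p = 6.31e-07).

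Adgrg1, an adhesion receptor gene also expressed by other cells of the brain, was the only homeostatic gene not called, at 27.19 to 31.89 RPKM in treated and 17.3 to 31.48 RPKM in untreated libraries (0.34, limma adjusted p = 0.355).

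**Figure D1:**
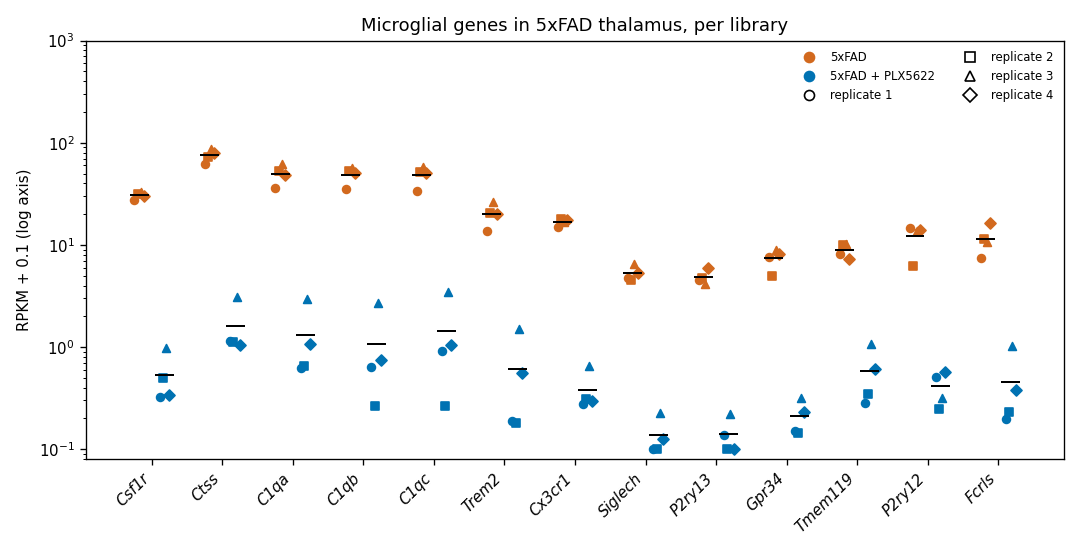
RPKM + 0.1 on a log axis for 13 microglial genes in 5xFAD and 5xFAD + PLX5622 thalamus, with 1 point per library, shapes for replicates 1 to 4 and a bar at the mean. Treated and untreated libraries do not overlap for any gene shown, with Csf1r at 0.221 to 0.8688 RPKM against 27.11 to 32.87 RPKM.

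Among the complement components tested, C1q fell. The 3 chains of C1q, which start the classical pathway and are made by microglia, fell together: C1qa by 5.52, C1qb by 5.97 and C1qc by 5.63 on the log2 scale (limma adjusted p = 2.88e-06, 2.99e-06 and 1.8e-05). C1qa read 0.5276, 0.5577, 2.829 and 0.9708 RPKM in treated and 36.24, 52.98, 61.66 and 48.48 RPKM in untreated libraries, and treated replicate 3 was the highest of the treated group. The anaphylatoxin receptor gene C5ar1 had 0 reads in all 4 treated libraries and 84 reads over the untreated ones, at least 29.4-fold lower when the floor is 3 reads over the group. It was among 5 lower genes with no read in treated thalamus. C1ra and C1s1, which encode the proteases bound to C1q, and C2, C4b and C3 of the following steps were not called, with C4b and C3 at log2 fold changes of 0.90 and 0.50 (limma adjusted p = 0.166 and 0.838). Of 22 complement genes 9 fell and 0 rose, with a median of -0.31 that was the same with C5ar1 at its bound. The 9 include C1ql3, which encodes a secreted synaptic protein and not a complement component.

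Receptors, signalling genes and transcription factors of myeloid cells fell as well. All 26 tested genes of myeloid signalling were lower (median -2.74), among them the Fc receptor gene Fcgr3 (-4.85, limma adjusted p = 5.74e-11), the lipid phosphatase gene Inpp5d (-3.22, limma adjusted p = 7.18e-13) and the actin regulator gene Nckap1l (-3.33, limma adjusted p = 8.59e-12). Syk, the kinase downstream of TREM2 and TYROBP, read 0.1875 to 0.3434 RPKM against 0.8148 to 1.048 RPKM (-1.59, limma adjusted p = 9.7e-06). Trem2 itself fell by 5.58 and Tyrobp by 4.95 on the log2 scale (limma adjusted p = 1.39e-09 and 3.35e-06). Of 23 pattern recognition genes 16 fell (median -1.91), including the nucleic acid sensor gene Tlr7 (-3.47) and the lipopolysaccharide co-receptor gene Cd14 (-3.87; limma adjusted p = 9.99e-11 and 2.64e-08).

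Of 17 myeloid transcription factor genes 10 fell. Irf8 read 0.06726, 0.2743, 0.3606 and 0.3058 RPKM with treatment and 3.376, 3.234, 3.755 and 3.625 RPKM without it (-3.45, limma adjusted p = 4.87e-10). Spi1, which encodes the factor PU.1, fell by 3.96 on the log2 scale (limma adjusted p = 6.01e-09). Of 22 cytokine and chemokine genes 8 fell, with a median of -0.12, that of Tgfb1 by 1.64 on the log2 scale to 30.9 ± 9.71% of its untreated level (limma adjusted p = 1.09e-06).

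**Figure D2:**
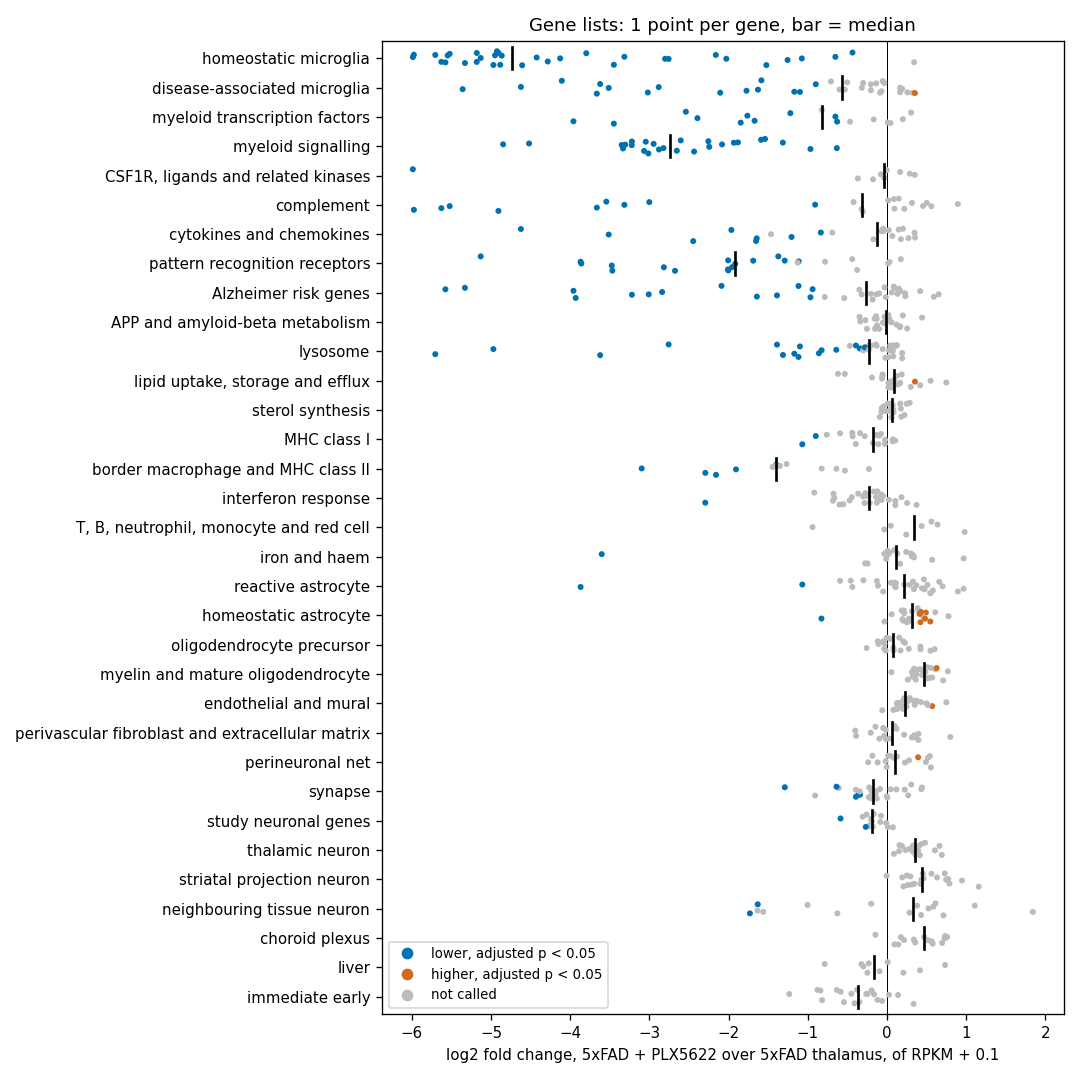
Log2 fold change of RPKM + 0.1 between 5xFAD + PLX5622 and 5xFAD thalamus for the genes of 33 lists, with 1 point per gene and a bar at each list's median. Points called lower gather in the microglial and myeloid lists, where the homeostatic median is -4.74, and the medians of the astrocyte, myelin and neuronal lists lie between -0.19 and 0.47.

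PU.1 binds the core sequence GAGGAAGT, so the promoters of the lower genes were searched for it on both strands. The 8 letters, or their reverse complement ACTTCCTC, stood within 250 bases before to 50 bases after the RefSeq start in 18 of 102 matched genes that fell at least 4-fold (17.6%), in 19 of 192 that fell less (9.9%) and in 0 of 40 that rose. Among all tested genes with a matched promoter the share was 2.7%, or 327 of 12131. These counts are a description, and a match is not a bound site. The first 280 bases of the promoters of 3 strongly lowered microglial genes are shown with the match in capitals, all on GRCm38.p6, namely Ctss (chr3:95526536-95526815, plus strand), C1qc (chr4:136892885-136893164, minus strand) and Cd53 (chr3:106790120-106790399, minus strand).
Ctss: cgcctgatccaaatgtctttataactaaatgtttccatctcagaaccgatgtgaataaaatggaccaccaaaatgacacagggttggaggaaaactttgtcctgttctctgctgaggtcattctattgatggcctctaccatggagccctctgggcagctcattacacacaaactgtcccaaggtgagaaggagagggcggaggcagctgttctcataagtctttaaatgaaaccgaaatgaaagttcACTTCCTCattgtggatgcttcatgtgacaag
C1qc: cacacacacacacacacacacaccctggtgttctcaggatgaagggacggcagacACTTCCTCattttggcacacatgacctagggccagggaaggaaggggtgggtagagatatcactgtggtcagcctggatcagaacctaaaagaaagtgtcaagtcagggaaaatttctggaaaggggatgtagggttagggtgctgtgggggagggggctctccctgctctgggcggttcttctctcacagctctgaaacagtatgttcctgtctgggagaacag
Cd53: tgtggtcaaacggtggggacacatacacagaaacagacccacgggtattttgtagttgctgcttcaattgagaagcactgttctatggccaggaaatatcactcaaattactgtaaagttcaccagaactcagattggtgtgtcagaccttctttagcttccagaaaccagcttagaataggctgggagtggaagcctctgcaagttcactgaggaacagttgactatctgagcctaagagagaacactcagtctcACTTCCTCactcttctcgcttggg
In all 3 the strand of the gene holds the reverse complement. The match begins 2 bases before the start in Ctss, 195 bases before it in C1qc and 6 bases after it in Cd53, so its place was not shared.

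Ctss, the gene of the microglial protease cathepsin S, read 1.053, 1.018, 3.012 and 0.9576 RPKM with treatment and 61.45, 72.88, 87.06 and 80.13 RPKM without it (-5.70, SE 0.695, limma adjusted p = 3.58e-07). Treated replicate 3 was again the highest of its group and still far below every untreated library.

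Of 34 DAM genes tested, 15 fell, 1 rose and 18 were not called, with a median of -0.56 and a range of -5.36 to 0.36. Cst7, the cystatin F gene (chr2:150570415-150578944), whose product inhibits lysosomal proteases, read 0.09649, 0.1749, 0.7243 and 0.3133 RPKM with treatment and 9.686, 15.85, 22.11 and 14.97 RPKM without it (-5.36, SE 0.619, limma adjusted p = 1.13e-07). The integrin gene Itgax (CD11c; chr7:128129526-128150657) fell from 1.842 to 2.823 RPKM to 0.0307 to 0.2028 RPKM (-3.66, limma adjusted p = 6.94e-10). In both genes no treated library reached an untreated one.

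The β-glucan receptor gene Clec7a and the chemokine genes Ccl6 and Ccl3 fell by 4.11, 4.62 and 3.51 on the log2 scale (limma adjusted p = 3.14e-06, 4.4e-10 and 0.00034). Cd68, a lysosomal membrane protein gene of phagocytes, kept 7.92 ± 3.28% of its level (-3.62, limma adjusted p = 2.25e-12). DAM genes that many cell types express were called lower in some cases, such as Ctsd (-1.17) and B2m (-0.90), and not called in others. Apoe, the main lipid carrier of the brain and largely an astrocyte product, read 865.0 to 1104 RPKM in treated and 670.9 to 1048 RPKM in untreated libraries (0.17, limma adjusted p = 0.613). Spp1, Gpnmb and Lpl had log2 fold changes of -0.07, -0.32 and -0.53 (limma adjusted p = 0.971, 0.776 and 0.62). For Gpnmb the highest treated library, replicate 1 at 4.885 RPKM, exceeded every untreated one. The 1 gene that rose, the fatty acid-binding protein gene Fabp5 (0.36, limma adjusted p = 0.0364), lost its call in 6 of the 8 fits that left out a library.

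**Figure D3:**
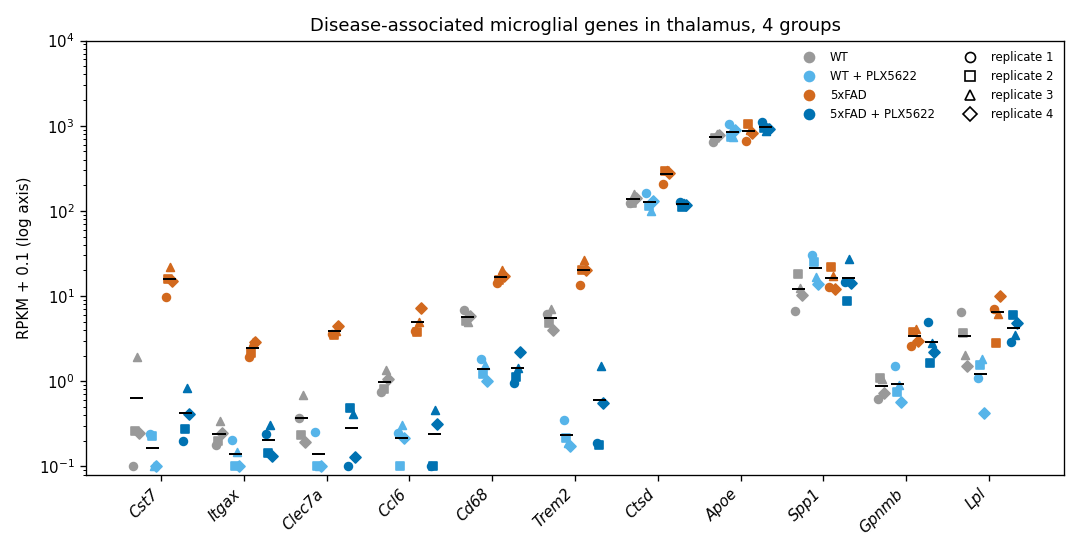
RPKM + 0.1 on a log axis for 11 DAM genes in the 4 thalamic groups, with 1 point per library and a bar at the mean. Cst7 and Itgax are high in untreated 5xFAD alone, whereas Apoe, Spp1 and Lpl overlap between treated and untreated 5xFAD.

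Of 36 lysosomal genes 15 fell, with a median of -0.23. Ctsd, the aspartic protease cathepsin D, read 126.3, 111.2, 123.1 and 118.1 RPKM with treatment and 209.5, 295.0, 301.8 and 280.1 RPKM without it (-1.17, SE 0.171, limma adjusted p = 1.14e-05), which left 44.1 ± 2.42%. Grn, which encodes progranulin, and Man2b1, a lysosomal mannosidase gene, kept 45.6 ± 3.0% and 55 ± 3.63% of their levels (limma adjusted p = 2.28e-07 and 1.48e-07). The cysteine protease gene Ctsb, at 88.42 to 93.86 RPKM against 93.58 to 111.7 RPKM, was not called (-0.20, limma adjusted p = 0.138). The lysosomal genes that fell include the microglial gene Ctss and enzymes that many cell types express, such as Ctsd.

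Genes of amyloid production were not called. Of 25 genes of APP and Aβ metabolism 0 rose and 0 fell by limma or by voom, with 0 higher and 3 lower at an unadjusted p below 0.05 and a median of -0.02. App read 510.5 to 587.0 RPKM in treated and 559.8 to 647.8 RPKM in untreated libraries (-0.15, limma adjusted p = 0.692), and the β-secretase gene Bace1 had a log2 fold change of -0.05 (limma adjusted p = 0.801). Thy1, whose promoter drives the transgenes, stood at -0.35 (limma adjusted p = 0.409). Reads of human and mouse App were not separated. Among 34 Alzheimer risk genes 13 fell and 0 rose (median -0.26, also with Ms4a6d, which had no treated read, at its bound), and they include Trem2, Inpp5d, Spi1 and Cd33, a myeloid sialic acid-binding lectin gene (-3.93, limma adjusted p = 4.01e-10).

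Macrophages at the borders of the brain also depend on CSF1R, and 5 of 13 genes of border macrophages and MHC class II fell (median -1.40). The mannose receptor gene Mrc1 read 0.01789 to 0.09592 RPKM in treated and 1.068 to 1.704 RPKM in untreated libraries (-3.10, limma adjusted p = 4.26e-06), and the scavenger receptor genes Stab1 and Cd163 fell by 2.16 and 1.91 (limma adjusted p = 3.62e-07 and 0.000661). The hyaluronan receptor gene Lyve1 (-1.40, limma adjusted p = 0.0177) lost its call without treated replicate 4, untreated replicate 1 or untreated replicate 3. B2m, the light chain of MHC class I, kept 53.9 ± 8.59% of its level (-0.90, limma adjusted p = 0.000201). Of 30 interferon-response genes 1 fell, a share near the 2.42% called lower over all genes. It was Ifi27l2a (-2.29, limma adjusted p = 0.0384), which lost its call in 5 of the 8 fits. Of 8 tested genes of T cells, monocytes and red cells, limma and voom called 0, with 1 higher at an unadjusted p below 0.05. They were Cd4, Trbc2, Lck, Ccr2, Hba-a1, Hba-a2, Hbb-bs and Alas2, and no B cell or neutrophil gene of the list was tested.

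The genes that rose included astrocyte genes. Ednrb, the endothelin B receptor of astrocytes (chr14:103814615-103844508), read 27.2, 24.86, 23.88 and 25.15 RPKM with treatment and 15.73, 16.96, 17.89 and 17.3 RPKM without it (0.57, SE 0.0922, limma adjusted p = 5.93e-05). All treated libraries were above all untreated ones. Vegfa, the vascular growth factor, read 16.75, 16.36, 17.45 and 17.99 RPKM against 13.33, 11.71, 13.22 and 12.18 RPKM (0.44, limma adjusted p = 0.000534). Acsl6, which activates polyunsaturated fatty acids, rose by 0.30 on the log2 scale (limma adjusted p = 0.00774).

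Of 23 homeostatic astrocyte genes 6 rose and 1 fell, and 21 were above 0 (median 0.32). Treated replicate 1 had the highest treated value for 15 of the 23, and untreated replicate 1 the lowest untreated value for 11. The astrocyte transcription factor gene Sox9 rose by 0.49 (limma adjusted p = 0.0138) and the potassium channel gene Kcnj10 by 0.55 (limma adjusted p = 0.0231). Kcnj10 read 89.21, 77.41, 78.57 and 70.01 RPKM with treatment and 43.79, 70.33, 56.28 and 47.68 RPKM without it, so that the lowest treated library was just below the highest untreated one. The gene that fell, the phagocytic receptor gene Mertk (-0.83, limma adjusted p = 0.00528), is expressed by microglia as well as astrocytes. Il33, an alarmin gene of oligodendrocytes and astrocytes, rose by 0.63 (limma adjusted p = 0.0181) and the vascular peptide gene Apln by 0.73 (limma adjusted p = 0.00873). Aldh1a1 rose by 0.95 (limma adjusted p = 0.0134), and since its RefSeq locus overlaps that of E030003E18Rik, which rose by the same amount, reads of the pair may not be separable. In the fits that left out a library Sox9 and Apln lost their calls in 1, Il33 in 2, and Kcnj10 and Aldh1a1 in 3.

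Of 29 reactive astrocyte genes 0 were called higher by limma or voom, with 4 higher and 5 lower at an unadjusted p below 0.05. Gfap, the astrocyte filament gene, read 227.5, 131.2, 176.8 and 156.5 RPKM with treatment and 84.85, 114.6, 124.8 and 108.3 RPKM without it (0.66, SE 0.321, limma adjusted p = 0.288). The water channel gene Aqp4 had a log2 fold change of 0.78 (limma adjusted p = 0.096). For both genes every treated library was above every untreated one, as it was for 1021 of all genes in either direction (6.39%). The list's 2 genes that fell were Cd14 and the immunoproteasome gene Psmb8, both of which microglia express, and Psmb8 (-1.07, limma adjusted p = 0.0422) lost its call in 6 of the 8 fits and with voom (adjusted p = 0.0682). All 24 myelin genes were above 0 (median 0.47) and 1 of them, Il33, was called. Untreated replicate 1 had the lowest untreated value for 16 of the 24, and treated replicate 1 the highest treated value for 14.

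The count of higher genes rested on single libraries. It was 13 without treated replicate 1, 24 without treated replicate 3, 20 without untreated replicate 1, 26 without untreated replicate 4 and 147 without untreated replicate 2. With the cortical score as a covariate, chosen after the data had been seen, 3 of the 55 were called and the homeostatic astrocyte median was 0.14, while 31 homeostatic microglial genes were called lower. That fit held the thalamic libraries alone, where 5 of the 55 were called without the covariate.

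**Figure D4:**
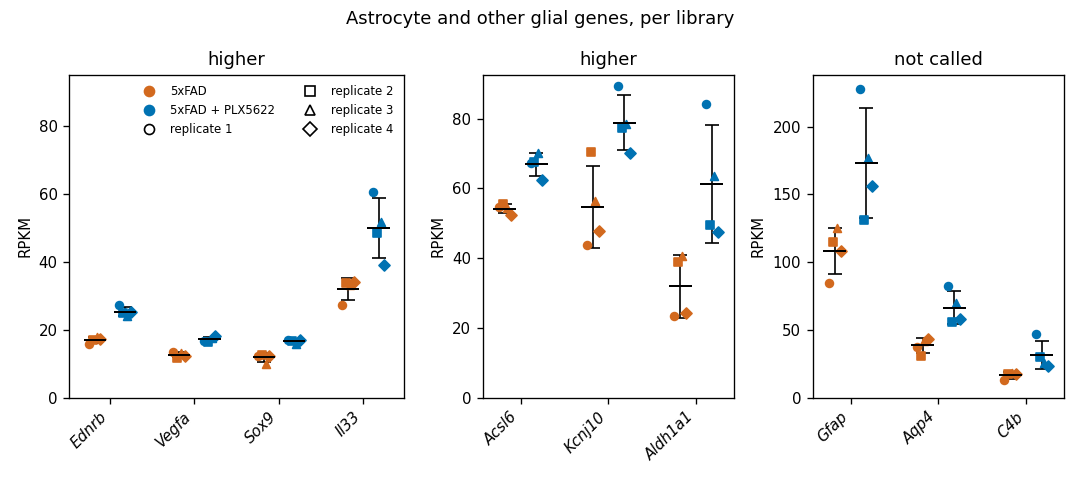
RPKM of astrocyte and other glial genes in 5xFAD and 5xFAD + PLX5622 thalamus, with 1 point per library, a bar at the mean and error bars of 1 SD. Ednrb, Vegfa and Sox9 separate completely, with Ednrb at 23.88 to 27.2 RPKM over 15.73 to 17.89 RPKM, and Gfap, Aqp4 and C4b were not called.

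Of 30 synaptic genes 5 fell, with a median of -0.17. Slc17a7, the vesicular glutamate transporter of cortical neurons (chr7:45163921-45176139), read 58.9, 36.36, 70.3 and 78.35 RPKM with treatment and 200.3, 118.4, 135.3 and 131.7 RPKM without it (-1.29, SE 0.245, limma adjusted p = 0.000602). The kinase gene Camk2a fell by 0.64 (limma adjusted p = 0.0127) and the postsynaptic scaffold gene Shank2 by 0.36 (limma adjusted p = 0.00292), and the presynaptic genes Bsn and Syn2 fell by 0.39 and 0.34 (limma adjusted p = 0.0274 and 0.0419). Camk2a lost its call in 2 of the 8 fits that left out a library, Bsn in 4 and Syn2 in 6, and Syn2 was not called with voom (adjusted p = 0.0691).

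Cortical transcription factor genes moved with them: Emx1 fell by 1.73 and Tbr1 by 1.63 on the log2 scale (limma adjusted p = 0.00442 and 0.0309), and Tbr1 lost its call in 4 of the 8 fits. With voom on recovered reads neither was called (adjusted p = 0.0822 and 0.0517). With the cortical score as a covariate Slc17a7 stood at -0.39 (limma adjusted p = 0.768), 0 of the 30 synaptic genes were called by limma (7 lower and 3 higher at an unadjusted p below 0.05) and their median was -0.02. That fit held the thalamic libraries alone, where 1 synaptic gene was called lower without the covariate, so the smaller fit also costs calls. In wild-type thalamus, where the cortical score was -0.52 to 2.18 with PLX5622 and 1.33 to 3.32 without it, Slc17a7 fell by 1.26 (limma adjusted p = 0.000828). Treatment and the share of cortical tissue in these dissections cannot be told apart for the synaptic genes. Of 20 thalamic neuron genes limma and voom called 0, also at an unadjusted p below 0.05, and all 20 were above 0 (median 0.35). With the cortical score as a covariate their median was -0.36 and 0 were called, with 4 lower and 0 higher at an unadjusted limma p below 0.05.

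**Figure D5:**
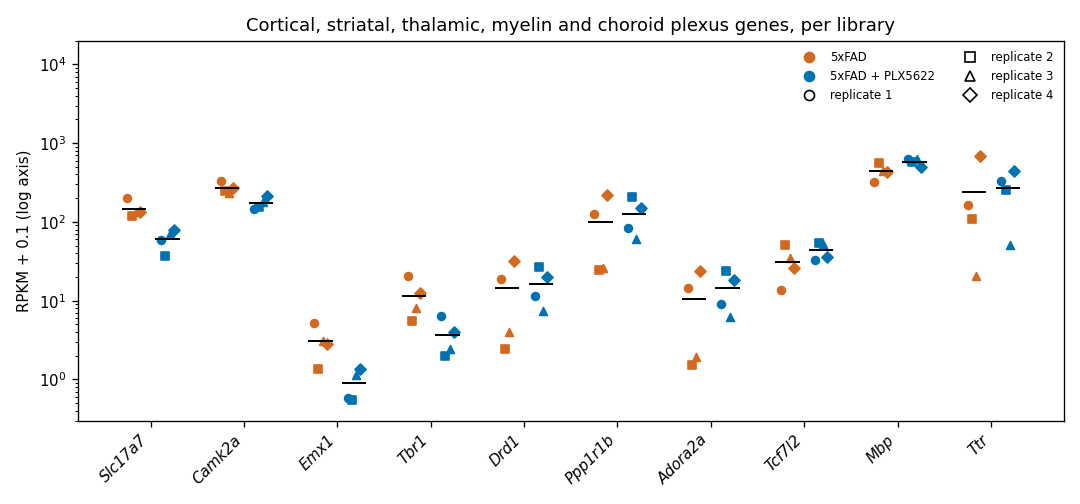
RPKM + 0.1 on a log axis for markers of cortical, striatal and thalamic neurons, myelin and choroid plexus in 5xFAD and 5xFAD + PLX5622 thalamus, with 1 point per library and a bar at the mean. Slc17a7 is lower in every treated library, at 36.36 to 78.35 RPKM against 118.4 to 200.3 RPKM, while the striatal gene Drd1 varies widely within both groups.

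In wild-type thalamus, which shares no library with the comparison above, 527 genes were lower with PLX5622 (3.3%) and 87 higher (0.545%). The mean log2 level of the striatal neuron genes was 2.59 to 3.03 there with PLX5622 and 3.39 to 5.24 without it. Their median log2 fold change was -1.19, beside 0.45 in 5xFAD thalamus. Treatment and the share of striatal tissue cannot be told apart in the wild-type comparison, and this limit carries into the test between genotypes. The 241 genes lower in both genotypes made up 62.4% of those lower in 5xFAD and 45.7% of those lower in wild-type mice, and the 11 higher in both made up 20.0% and 12.6%. Of the 386 genes lower in 5xFAD 377 had a value below 0 in wild-type mice, and of the 55 higher genes 52 had a value above 0. Csf1r fell by 5.64 and Siglech by 4.89 in wild-type thalamus (limma adjusted p = 3.47e-09 and 6.43e-13). Ednrb, Vegfa and Acsl6 had values of 0.26, 0.24 and 0.20 there and were not called (limma adjusted p = 0.0972, 0.0938 and 0.118).

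The test of the difference between the genotypes called 1 gene with a larger fall in 5xFAD (0.00626%) and 0 with a higher value (0%), against 183 and 253 genes at an unadjusted limma p below 0.05 and 0 and 0 by voom. The gene was Itgax, with a difference of -2.85 (95% interval -3.82 to -1.88, limma adjusted p = 0.01). Its level in wild-type thalamus was already low (-0.81 with PLX5622, limma adjusted p = 0.189). The call was lost under several other settings, among them voom on recovered reads and the thalamic libraries fitted alone, and without treated 5xFAD replicate 2 or 4, wild-type replicate 1 or wild-type + PLX5622 replicate 1. Ctsd had a value of -0.12 in wild-type thalamus (limma adjusted p = 0.833) against -1.17 in 5xFAD, a difference that was not called.

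Against untreated wild-type thalamus, with which it shares the treated libraries of the main comparison, treated 5xFAD thalamus had 251 genes lower (1.57%) and 29 higher (0.182%). The lower ones were led by Csf1r (-5.44), Cx3cr1 (-4.98), C1qb (-4.93), Siglech (-4.88) and P2ry13 (-4.81), each at a limma adjusted p of 7.29e-05 or less, and 30 of the 34 homeostatic genes were among them. The DAM genes Cst7 and Itgax were at 0.15 and -0.27 (limma adjusted p = 0.953 and 0.817), and Ctsd at -0.20 (limma adjusted p = 0.723). Genes above the wild-type level included Gfap (1.79), the acute phase gene Serpina3n (1.81), C4b (1.96), the NF-κB regulator gene Bcl3 (1.88) and the chemokine gene Cxcl5 (2.31), with limma adjusted p of 0.000311, 0.00159, 0.000444, 0.000377 and 0.00817. C4b read 46.63, 30.06, 25.51 and 23.14 RPKM in treated 5xFAD mice, 12.67 to 17.74 RPKM in untreated 5xFAD mice and 7.806 RPKM on average in wild-type mice. Of 29 reactive astrocyte genes 5 were higher and 1 lower than in wild-type thalamus. The counts were 159 lower and 9 higher without treated replicate 1, 385 and 63 without wild-type replicate 3, and 10 higher without wild-type replicate 1, 18 without treated replicate 2 and 18 without treated replicate 3.

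Some microglial genes fell further in thalamus than in hippocampus of 5xFAD mice. The test of that difference called 92 genes with a lower value in thalamus (0.576%) and 16 with a higher one (0.1%), and 12 of the 34 homeostatic genes were among the 92. Csf1r fell by 5.99 in thalamus and by 2.60 in hippocampus (difference -3.39, SE 0.792, limma adjusted p = 0.0325). The differences were -3.53 for Cst7, -3.31 for Trem2, -2.91 for Cx3cr1 and -2.71 for Gpr34 (limma adjusted p = 0.0439, 0.0262, 0.0286 and 0.0169). Ednrb differed the other way, at 0.57 in thalamus and 0.04 in hippocampus (difference 0.53, limma adjusted p = 0.042), as did the calcium channel subunit gene Cacna2d2 (difference 1.19) and the small GTPase regulator gene Arhgap24 (1.47; limma adjusted p = 0.00643 and 0.0222), neither of which was called in thalamus itself. Treated hippocampal replicates 3 and 4 hold liver RNA, with the albumin gene Alb at 634 and 112 RPKM. Without both, 154 genes were lower and 61 higher, 12 homeostatic genes were among the lower ones, and Cst7 (-3.25), Itgam, Ccl6, Fcgr3, Camk2a and Syn2 were not called (limma adjusted p = 0.0769, 0.0524, 0.0838, 0.0603, 0.0646 and 0.0692). The labels do not say whether same-numbered libraries of the regions came from 1 mouse, but Xist was above 10 RPKM in the same replicates of hippocampus as of thalamus in both groups. Below that cut, Xist read 5.445 RPKM in treated hippocampal replicate 3, which holds liver RNA, and 0.03416 RPKM in treated thalamic replicate 3. With same-numbered libraries of a group as a block across regions, 108 genes were lower and 18 higher, 20 homeostatic genes were among the lower ones, Csf1r had a limma adjusted p of 5.85e-05, and Cst7, Ccl6, Shank2 and Bsn were not called (limma adjusted p = 0.0674, 0.053, 0.0674 and 0.0911). Leaving out 1 library at a time gave 29 to 104 lower and 2 to 25 higher genes.

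The difference between thalamus and cortex was called for 0 genes in either direction (0% and 0%) by limma and by voom, with 331 genes lower and 307 higher at an unadjusted p below 0.05. Csf1r fell by 4.22 in 5xFAD cortex and Ednrb had a value of 0.28 there, beside -5.99 and 0.57 in thalamus.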

How the data were processed

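RNA of 48 mouse libraries was read in the study, and the 8 of 5xFAD thalamus with and without PLX5622 are reported here. Per the methods, single-end reads of 50 bp were mapped by STAR (mm10) and counted by featureCounts. The authors applied edgeR's calcNormFactors and deposited 1 table in RPKM. The labels and the methods name different extraction and library kits, and whether counting used the strand is not given in the sources used here. Since each RPKM is a multiple of what 1 read is worth, whole reads were recovered (tolerance 0.05 reads) for 16014 of 16014 genes.

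The log2(RPKM + 0.1) values of the 48 libraries entered a linear model with 1 mean per group (limma 3.58.1 under R 4.3.3, eBayes with trend). Fold changes are on that scale, which understates changes of low genes. The p of the main comparison was adjusted by Benjamini-Hochberg over the study's 15 comparisons together and that of each difference within its contrast, at 0.05. Other tools were scipy 1.17.1, pandas 2.3.3, matplotlib 3.10.9 and numpy 2.4.6 on Python 3.11.15, and the fit was tested on simulated data.

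Members and the 34 gene lists were chosen with earlier results of these data known. Named genes are up to 15 lower and 15 higher called genes with the largest change, no overlap and a mean of at least 1 RPKM, up to 4 genes per list with the smallest p, the first 4 of each list, and up to 5 per direction of each difference. A few genes named by the rule are left unreported here. Any other gene, and the 3 promoters printed, were picked with values in view. Locations and promoters are from RefSeq on GRCm38.p6, where 15550 Entrez numbers matched; 24 symbols stored as dates were renamed. Alternatives were other pseudocounts, filters, scaling, eBayes settings, library sets and covariates, a replicate block, voom on recovered reads and each library left out. The cortical covariate, the block across regions and the fit without liver-bearing hippocampal libraries were added after seeing the data.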

Additional observations from a re-analysis of the deposited data

Results flagged for a closer look

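Of 186 groups of 4 libraries examined, 10 had a library far from the other 3, and chance flags about 1 in 20 groups. In treated 5xFAD thalamus, replicate 3 was high for Cx3cr1 (0.5472 RPKM, others 0.1786 to 0.2081) and Ctss (3.012 RPKM, others 0.9576 to 1.053), and replicate 1 for Adgrg1 (31.89 RPKM, others 27.19 to 27.89). In untreated 5xFAD thalamus, replicate 2 was low for P2ry12 (6.129 RPKM, others 13.59 to 14.51) and App (559.8 RPKM, others 647.5 to 647.8) and high for C3 (0.9922 RPKM, others 0.5473 to 0.599). Replicate 1 was low for C4b (12.67 RPKM, others 17.19 to 17.74), Cd14 (2.027 RPKM, others 3.229 to 3.24) and Il33 (27.28 RPKM, others 33.04 to 33.99), and replicate 3 for Sox9 (9.956 RPKM, others 12.32 to 12.6).

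The effect of PLX5622 in thalamus differed between the genotypes for Itgax (difference -2.85). It differed between thalamus and hippocampus of 5xFAD mice for 25 of the 93 genes examined here, with limma adjusted p of 0.00543 to 0.0476. Over all genes tested 0.576% were lower in thalamus and 0.1% higher. Some of the 25 were named because this same test called them, so their number is not a result about the named genes. Of the 25, Itgam, Cst7, Ccl6, Fcgr3, Camk2a and Syn2 were not called without the liver-bearing hippocampal libraries, and Cst7, Ccl6, Shank2 and Bsn not with same-numbered libraries as a block across regions. The log2 differences, thalamus minus hippocampus, of microglial and myeloid genes were Csf1r -3.39, Siglech -2.30, Cx3cr1 -2.91, P2ry13 -2.48, P2ry12 -2.33, Gpr34 -2.71, Laptm5 -2.55, Trem2 -3.31, Itgam -2.60, Cst7 -3.53, Ccl6 -2.35, Cd68 -1.76, Fcgr3 -2.33, Inpp5d -1.37, Tlr7 -1.74 and Cd14 -2.66. Those of neuronal genes were Slc17a7 -1.91, Camk2a -0.92, Shank2 -0.46, Bsn -0.62 and Syn2 -0.64. For these neuronal genes treatment and the share of cortical tissue cannot be told apart, as for their falls in thalamus itself. Those above 0 were Ednrb 0.53, Fgf1 0.78, Cacna2d2 1.19 and Arhgap24 1.47.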

How the results depend on the processing

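None of the 93 genes examined changed direction while called, in any setting. The 386 lower and 55 higher genes of the main comparison became 240 and 15 with the 8 libraries alone and 231 and 6 with thalamic libraries alone. With thalamic libraries alone and a covariate they became 229 and 36 (striatal) and 198 and 3 (cortical). A mean of at least 1 RPKM gave 234 lower genes, and adjustment within the comparison alone 28 higher ones. Leaving out each library gave 313 to 413 lower and 13 to 147 higher genes. Same-numbered treated and untreated libraries correlated at -0.185 to 0.0669, which shows no pairing by number but cannot exclude a shared batch. With a replicate block 10 genes were higher and 281 lower. The cause of these moves was not tested.

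The 1 gene of the genotype difference became 10 with a pseudocount of 1 and 0 with a pseudocount of 0.01, a mean of at least 1 RPKM, either covariate, thalamic libraries alone or voom, and 0 to 2 on leaving out each library. The 92 lower and 16 higher genes of thalamus minus hippocampus became 51 and 7 with the block within regions, 108 and 18 with same-numbered libraries of a group as a block across regions (their correlations between thalamus and hippocampus were -0.116 to 0.113), 154 and 61 without the liver-bearing libraries, and 28 higher with voom. Leaving out each library gave 29 to 104 and 2 to 25, with shifts over 1.5 times in either count without untreated hippocampal replicates 2 (60 and 10) and 3 (29 and 3), treated hippocampal replicate 2 (46 and 2), treated thalamic replicates 1 (33 and 3), 2 (39 and 5) and 3 (8 higher), and untreated thalamic replicates 1 (36 and 2), 2 (25 higher) and 3 (47 and 7). Treated 5xFAD against wild-type thalamus, at 251 and 29, gave 143 and 7 with the cortical covariate, 126 and 16 at a mean of at least 1 RPKM, 18 higher with thalamic libraries alone, and 159 to 385 and 9 to 63 on leaving out each library. Csf1r was left at 0.944 to 1.65% on leaving out each treated library and at 1.04% by medians. Treated libraries totalled 46.3 M and untreated ones 44.0 M reads, and genes under 1 RPKM rest on few reads.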

Other observations

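Among lists not described above, 25 of 26 endothelial and mural genes were above 0 (median 0.23), and the mural channel subunit gene Abcc9 was called higher (0.57, limma adjusted p = 0.018). Single libraries weighed on that list: treated replicate 3 had the highest treated value for 17 of the 26, and untreated replicate 2 the highest untreated value for 18. The perineuronal net list held 1 higher gene, the proteoglycan gene Bcan (0.40, limma adjusted p = 0.0113; list median 0.11). The iron transporter gene Slc11a1, a gene of phagocytes, fell by 3.60 on the log2 scale (limma adjusted p = 2.34e-10) and was the 1 called gene of 18 genes of iron and haem. Of 19 MHC class I genes 2 fell, B2m and Psmb8 (median -0.18). Of 23 lipid genes 1 rose, Fabp5 (median 0.09). The paper drew a set of neuronal genes from those lower in untreated transgenic than in wild-type hippocampus. It reports that this fall was prevented in the absence of microglia. Of 15 such genes, 13 were below 0 with PLX5622 in 5xFAD thalamus and 2 were called lower (median -0.19). With the cortical score as a covariate their median was -0.02. The median difference, thalamus minus hippocampus, was -0.71. The thalamic direction was thus not the hippocampal one, and its cause was not tested. Regions may share mice, so the thalamic values may not be independent of that choice. The neighbouring tissue list had 2 lower genes, Emx1 and Tbr1, of 16. Over all genes tested 2.42% were called lower and 0.344% higher, so a count of 1 or 2 in these lists is not a result about the list.

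No gene was called by limma or voom in the lists of sterol synthesis, oligodendrocyte precursors, perivascular fibroblasts, striatal neurons, choroid plexus, liver, immediate early genes and sex markers. At an unadjusted limma p below 0.05 these held 1, 2, 0, 1, 0, 0, 0 and 0 higher and 0, 0, 0, 0, 0, 0, 4 and 0 lower genes in that order.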
